A study of Rattus norvegicus with 24 samples.

Results

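The genes described here encode the enzymes that modify foreign chemicals and many of the body's own lipophilic compounds: the Cyp, Fmo, Ces, Akr1, Ugt, Gst and Sult families. Probes were chosen by name, as gene probes whose symbol begins with 1 of these family stems, and were kept when the sample channel carried the scanner's well-above-background mark on 5 or more of the 24 arrays. The names matched 163 probes for 136 genes, and 117 probes for 102 genes were kept, among 26097 genes or unnamed probes tested on the arrays. The other 34 genes had no probe above that limit, among them Cyp2e1, Cyp3a2, Cyp7a1, Cyp24a1 and Akr1b10. Measured signal thus decided membership, and a gene such as Sult1c3, seen on 8 arrays of which 6 came from 1 group, had to differ between groups to be kept. Without the group that holds most of their arrays, 18 of the 102 genes would miss the limit, and 3 of them, Sult1c3, Sult1d1 and Ugt2b1, are among the genes counted below as higher or lower; their differences are given as a description, with no test. Kept probes on exactly 5 arrays had a median log2 intensity of 6.82, as the mean of the sample and pool channels. Probes just outside the limit, on 4 arrays, had 6.75. Where a gene had several kept probes, the brightest stands for it, and 14 genes had more than 1.

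Xenobiotic metabolism runs in stages. Cytochrome P450 (Cyp) and flavin-containing monooxygenases (Fmo) add oxygen to a substrate, carboxylesterases (Ces) split esters and amides, and aldo-keto reductases of the Akr1 family reduce aldehydes and ketones, which exposes a group that can be conjugated. UDP-glucuronosyltransferases (Ugt), glutathione S-transferases (Gst) and sulfotransferases (Sult) then attach glucuronic acid, glutathione or sulfate, and transporters export the product. The gut epithelium carries these enzymes as a first barrier to what is eaten, and ligand-activated receptors such as the aryl hydrocarbon receptor and the pregnane X receptor set the levels of many of them. Several of the families also act on the body's own retinoids, steroids, bile acids and eicosanoids.

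The animals were male (ACIxF344)F1-Pirc rats, a cross of ACI with F344 rats bearing the Pirc mutation of Apc, the tumour suppressor that restrains Wnt signalling. All 10 rats were Apc Pirc/+ and 97 days old, so the colon called normal here is also heterozygous and comes from tumour-bearing rats. Rats 1, 5, 6, 7 and 9 had drunk 4% dextran sodium sulfate (DSS), which injures the colon lining, from day 40 to 47 and again from day 54 to 61 of age. Rats 2, 3, 4, 8 and 10 were untreated. Each rat gave normal distal colon and a colonic tumour, which makes 4 groups of 5 rats on 24 two-colour arrays: 7 arrays for normal colon of untreated rats, 6 for normal colon of DSS rats, 5 for tumours of untreated rats and 6 for tumours of DSS rats. Every array compared 1 sample, labelled with Cy3, with 1 common pool in Cy5, colon RNA of Apc wild-type rats, and dyes were never swapped. All values are log2 sample over pool, so 0 means the level of the pool, and a difference of 1 between groups is a 2-fold change. These are bulk samples, in which fewer cells of a type and less RNA per cell cannot be told apart.

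The sample channel was well above background for 47.6% to 70.5% of probes on 21 arrays and for 86.9% to 95.2% on the other 3, which were the first array of normal colon of rat 2, normal colon of rat 4 and the tumour of rat 9. Normal colon of DSS rats 1 and 5 correlated at r = 0.970 across all features, and at 0.991 across the 102 genes, whereas second arrays of the same rat and tissue correlated at r = 0.813 to 0.968 and, across the 102 genes, at 0.921 to 0.988. Counts that rest on these samples are therefore also given with rats 1 and 5 counted as 1 sample of normal colon and with the 3 bright arrays left out. Slide identifiers fall into 2 runs, of rats 1 to 6 and of rats 7 to 10, each with rats of both treatments. Of 6 markers of epithelium in general, such as Epcam and Cdh1, 6 were detected in every group and 0 changed in tumours of untreated rats. In normal colon of DSS rats, 9 of 9 measured genes of squamous epithelium were raised, a tissue that the colon does not normally hold. Also raised there were 3 of 7 macrophage and neutrophil markers and 1 of 7 fibroblast markers. Of 18 absorptive markers 1 rose and 1 fell, and 0 of 5 goblet markers passed. Macrophage and neutrophil markers averaged 0.98 to 1.26 there and -0.01 to 0.37 in normal colon of untreated rats. The part of these cells in the changes of the enzymes was not tested. Of 136 calls of the genes named, 91 held with any 1 rat left out, and losses are given beside the values.

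The probe of Akr1b8 is shown because its rise was the largest among the 102 genes, and 4 others because the readings of close relatives turn on them. Each is the 60-base oligonucleotide as deposited, and capitals in a pair mark bases shared in the best ungapped overlap.
Akr1b8: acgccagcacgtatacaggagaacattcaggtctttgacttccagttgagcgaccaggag
Ces1e, brighter probe: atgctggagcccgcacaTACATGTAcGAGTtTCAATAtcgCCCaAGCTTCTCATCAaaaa
Ces1e, dimmer probe: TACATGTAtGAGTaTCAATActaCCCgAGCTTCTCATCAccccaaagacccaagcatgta
Cyp2b12: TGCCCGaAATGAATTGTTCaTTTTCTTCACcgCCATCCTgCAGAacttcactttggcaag
Cyp2b21: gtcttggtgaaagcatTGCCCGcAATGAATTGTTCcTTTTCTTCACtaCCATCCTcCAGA
The Ces1e pair shares 33 of 43 overlapping bases and the Cyp2b pair 39 of 44, so RNA of one relative could reach the probe of another. The probes of Cyp3a62 and Cyp3a18 shared 41 of 52 overlapping bases and those of Ces2c and Ces2h 41 of 59, and values of these relatives are uncertain in the same way.

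Tumours of untreated rats had less RNA of most xenobiotic enzymes whose level moved. Against normal colon of the same rats, 38 of the 102 genes were lower and 9 higher (limma, adjusted over all features at 0.05), or 46.1% of the genes, beside 18.2% of all features. By direction, 9.50% of all features were lower and 8.70% higher, so the 9 higher genes lie near the share of all features. Ugt2b1 is among the 38, and 37 were lower without it. The median difference was -0.17 for the 102 genes and 0.00 for all features. Dim probes changed less often, so the brighter part of the set was also read on its own: of 51 genes above the median log2 intensity of 8.06, 32 were lower and 5 higher, which is 72.5%, beside 28.4% of all features in that range (15.2% lower and 13.2% higher). Every family had members that fell, from 2 of 9 Akr1 genes and 2 of 13 sterol and vitamin Cyp genes to 9 of 16 Gst genes and 3 of 5 Fmo genes. Without rat 8 the number of higher genes was 5, and with plain median centring of the arrays in place of loess 18 genes were lower and 2 higher.

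**Figure D1:**
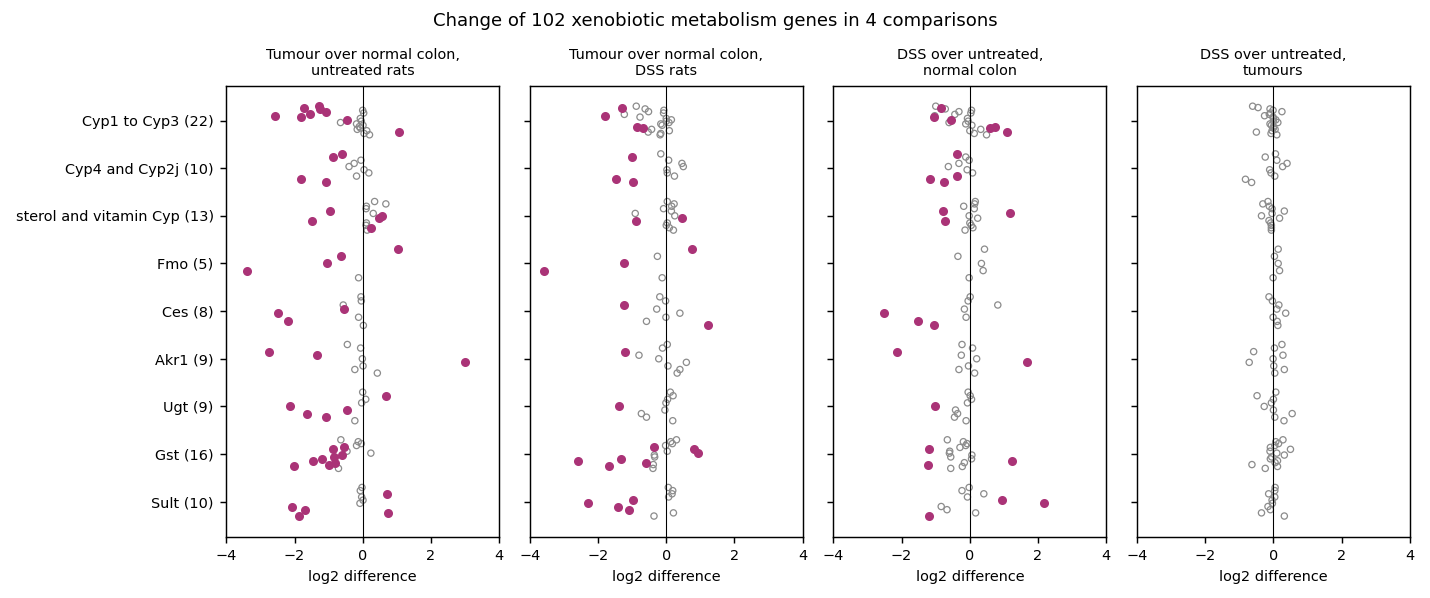
Log2 difference of each of the 102 genes, by enzyme family (number of genes in brackets), in tumours over normal colon of untreated rats, the same in DSS rats, DSS over untreated in normal colon, and DSS over untreated in tumours. Filled points passed the adjusted threshold of 0.05 and open points did not. The first panel has 38 filled points below 0 and 9 above it, and the last panel has none. Filled points of Ugt2b1, Sult1c3 and Sult1d1 are a description, since these genes were kept through the group where they are high.

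The largest fall was that of a flavin monooxygenase. Fmo2, the flavin monooxygenase best known from lung, read 0.44, 0.39, 0.14, 0.24 and 0.17 in normal colon of untreated rats 2, 3, 4, 8 and 10, the order used for every list of untreated rats. In their tumours it read -1.15, -3.69, -2.27, -4.49 and -3.94. The groups did not overlap, the tumour of rat 2 was the highest of the 5, and the fall was 10.5-fold (log2 difference -3.39 ± 0.56 SE, adjusted p = 0.000422). In DSS rats 1, 5, 6, 7 and 9, the order used for every list of DSS rats, Fmo2 read 0.47, 0.70, -0.34, 0.52 and 1.98 in normal colon. Their tumours read -2.04, -3.41, -4.40, -2.19 and -2.61. These groups did not overlap either, and the fall was 12.1-fold (log2 difference -3.60 ± 0.56 SE, adjusted p = 0.000504). Fmo4 fell in tumours of untreated rats (log2 difference -0.65 ± 0.13 SE, adjusted p = 0.00218). Fmo5, which can oxidise ketones to esters, ran the other way: it rose in tumours of untreated rats (log2 difference 1.03 ± 0.21 SE, adjusted p = 0.00255) and of DSS rats (log2 difference 0.75 ± 0.21 SE, adjusted p = 0.0382). The second call was lost without rats 1, 4, 5, 6 or 9 (0.56 to 0.81), with rats 1 and 5 as 1 sample (0.72, adjusted p = 0.0832) and without the bright arrays (0.64, adjusted p = 0.155).

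Among the Cyp1 to Cyp3 genes, the P450s that oxidise most drugs, 8 of 22 fell and 1 rose in tumours of untreated rats. All features had 9.50% lower and 8.70% higher. Cyp2d5, of a subfamily that oxidises basic drugs, read -0.81, -0.75, -0.09, -1.03 and -0.92 in normal colon of untreated rats. It read -1.98, -3.58, -2.61, -4.25 and -3.98 in their tumours. The groups did not overlap, and the fall was 5.91-fold (log2 difference -2.56 ± 0.34 SE, adjusted p = 7.46e-05). Its relative Cyp2d4 fell 3.52-fold (log2 difference -1.81 ± 0.25 SE, adjusted p = 0.000106). A second Cyp2d4 probe moved less. Cyp3a62, a Cyp3a form of the rat intestine, read -0.71, -0.70, -0.60, -1.08 and -0.95 in normal colon and -1.82, -2.02, -2.78, -3.25 and -2.71 in tumours of untreated rats. It was lower in all 5 tumours than in any of the 5 normal samples, by 3.27-fold (log2 difference -1.71 ± 0.24 SE, adjusted p = 0.000123). Cyp3a18, whose probe resembles that of Cyp3a62, fell 2.36-fold (log2 difference -1.24 ± 0.22 SE, adjusted p = 0.000747). Cyp3a9 fell (log2 difference -1.28 ± 0.37 SE, adjusted p = 0.0223), a call lost without rat 10 (-1.04). Cyp1a1, the classic target of the aryl hydrocarbon receptor, was above background on 2 of 7 arrays of normal colon and 1 of 5 of tumours of untreated rats, so no difference is read there; 6 of its 12 arrays above background were normal colon of DSS rats.

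Genes of the Cyp4 and Cyp2j group act on fatty acids and eicosanoids. In tumours of untreated rats 4 of 10 fell, beside 9.50% of all features. Cyp2j4, an enteric epoxygenase of arachidonic acid, read -0.34, -0.25, -0.04, -0.75 and 0.39 in normal colon and -1.56, -1.55, -1.59, -2.56 and -2.85 in tumours of untreated rats. The lowest normal sample, rat 8, still lay above the highest tumour, and the fall was 3.54-fold (log2 difference -1.82 ± 0.31 SE, adjusted p = 0.000482). Cyp2j3 fell 2.11-fold (log2 difference -1.08 ± 0.22 SE, adjusted p = 0.00227), and its second probe moved less. The Cyp4f genes, of the family that inactivates leukotriene B4, include Cyp4f5, which fell (log2 difference -0.88 ± 0.22 SE, adjusted p = 0.00798), and Cyp4f6, which fell (log2 difference -0.61 ± 0.10 SE, adjusted p = 0.000426).

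The P450s of sterol, steroid, retinoid and vitamin D metabolism had 2 of 13 genes lower and 3 higher in tumours of untreated rats. With 9.50% of all features lower and 8.70% higher, so few genes are not read as a result of the family. Cyp17a1, the steroid 17-hydroxylase, read -0.11, 0.14, 0.37, 0.33 and 0.19 in normal colon of untreated rats and -0.57, -1.34, -1.10, -1.90 and -1.70 in their tumours. The groups did not overlap, and the fall was 2.84-fold (log2 difference -1.5 ± 0.21 SE, adjusted p = 0.000111). Cyp27a1, the mitochondrial sterol 27-hydroxylase, fell 1.96-fold (log2 difference -0.97 ± 0.17 SE, adjusted p = 0.000586). Cyp26a1, which clears retinoic acid, rose (log2 difference 0.58 ± 0.13 SE, adjusted p = 0.00380), and so did Cyp20a1, a P450 of unknown function (log2 difference 0.49 ± 0.13 SE, adjusted p = 0.0118). Cyp11b1, the third, was named after its values were seen: it rose (log2 difference 0.24 ± 0.06 SE, adjusted p = 0.0125), was above background on 10 arrays and lost its call without rats 3 or 8 (0.20 to 0.22). Cyp51, the lanosterol demethylase of cholesterol synthesis, read 0.68 ± 0.30 higher and did not pass the test (adjusted p = 0.138). With the rat as a block, fixed or random, it passed (adjusted p = 0.00130 and 0.0403), and it was higher in the tumour of 5 of 5 rats.

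Of 9 reductases of the Akr1 family, 2 fell and 1 rose in tumours of untreated rats. With 9.50% of all features lower and 8.70% higher, so few genes are not read as a result of the family. Akr1b8, an aldose reductase relative that reduces retinaldehyde and lipid aldehydes, read -1.04, -0.90, -0.42, -0.80 and -0.69 in normal colon of untreated rats. Their tumours read 2.10, 1.96, 2.85, 2.10 and 2.14. All 5 tumours lay above every normal sample, and the rise was 7.98-fold (log2 difference 3.0 ± 0.23 SE, adjusted p = 3.29e-07), from 2.93 to 3.04 with any 1 rat left out. Akr1c15, an Akr1c form, read 0.19, 0.51, 0.74, 0.13 and 0.56 in normal colon and -1.60, -2.0, -2.97, -2.78 and -2.31 in tumours of the same rats. It was lower in every tumour than in every normal sample, by 6.77-fold (log2 difference -2.76 ± 0.34 SE, adjusted p = 3.44e-05). Akr1c14, the hepatic 3-alpha-hydroxysteroid dehydrogenase, fell 2.51-fold (log2 difference -1.33 ± 0.29 SE, adjusted p = 0.00367). Akr1a1, the general aldehyde reductase, differed by 0.43 ± 0.22, and Akr1b1, aldose reductase itself, by -0.23 ± 0.32; neither passed. Akr1a1 was higher in the tumour than in the normal colon of 5 of 5 rats and passed with the rat as a fixed block (adjusted p = 0.000497) but not as a random one (adjusted p = 0.0760).

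Of 8 carboxylesterase genes, 3 fell in tumours of untreated rats, where 9.50% of all features fell. Ces1e read -0.26, -0.58, -0.05, 0.20 and -0.57 in normal colon and -1.82, -2.87, -3.62, -2.84 and -2.52 in tumours of untreated rats. The groups did not overlap, and the fall on the brighter probe was 5.59-fold (log2 difference -2.48 ± 0.31 SE, adjusted p = 4.21e-05). The dimmer probe, which is tied to the gene only by the older name Ces1, read -0.01 for the same difference, so the result holds for the brighter sequence alone. Ces1d read 0.92, 0.21, 0.45, 1.17 and 0.16 in normal colon and -0.60, -1.67, -1.98, -2.0 and -1.78 in tumours of untreated rats, without overlap. It fell 4.56-fold (log2 difference -2.19 ± 0.29 SE, adjusted p = 7.44e-05), and Ces2a fell 1.46-fold (log2 difference -0.54 ± 0.11 SE, adjusted p = 0.00227).

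**Figure D2:**
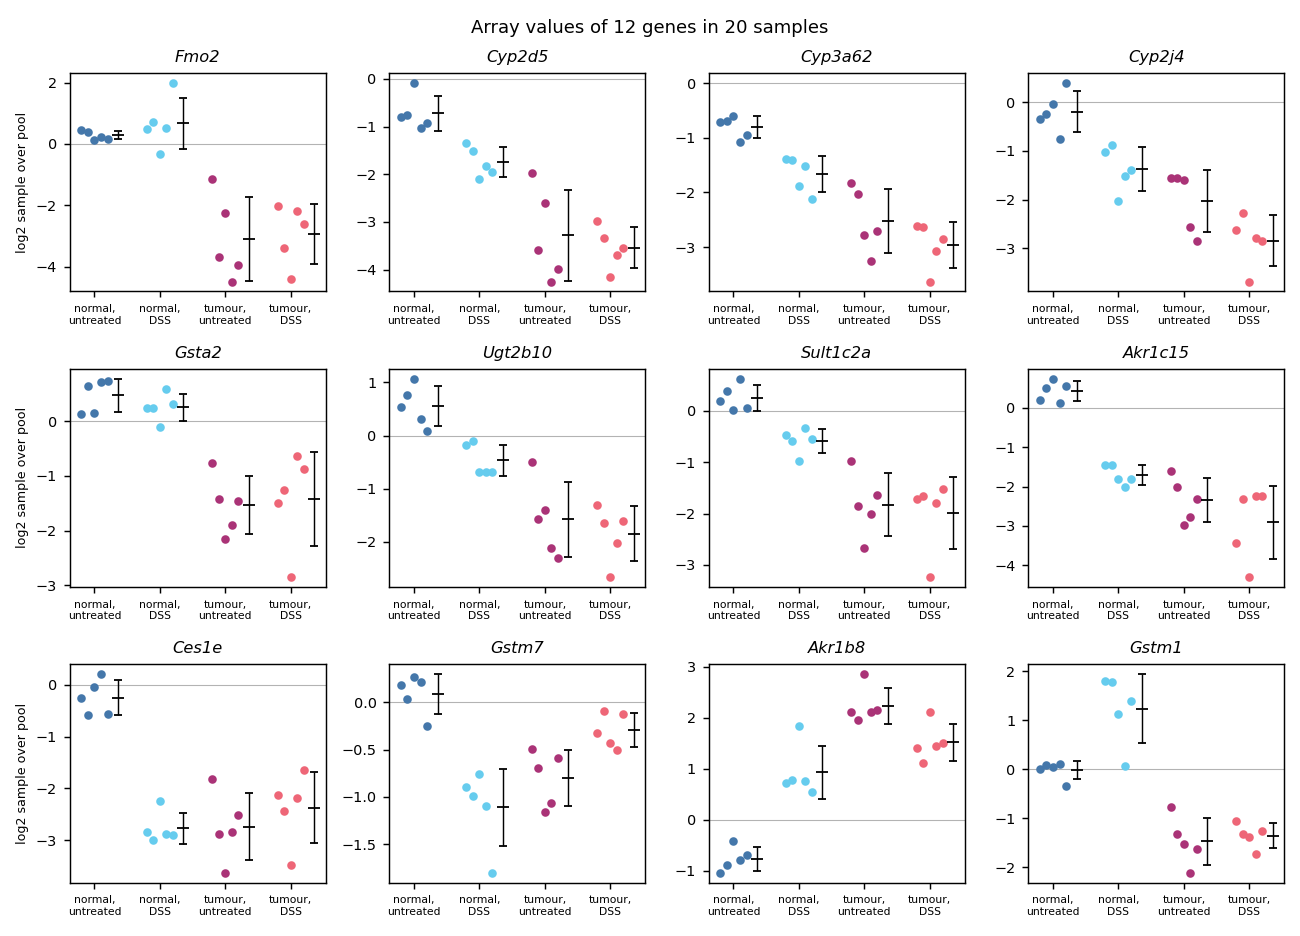
Log2 sample over pool of 12 genes in each of the 20 samples, with rats in number order within a group and the mean ± SD of 5 rats beside the points; the scale differs between panels. Fmo2, Cyp2d5 and Gsta2 lie lower in all tumours than in all normal samples of the same treatment, Akr1b8 rises to between 1.96 and 2.85 in tumours of untreated rats, and Ces1e and Gstm7 are low in normal colon of DSS rats.

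Among conjugating enzymes, too, falls outnumbered rises. Of 9 Ugt genes, 4 fell and 1 rose in tumours of untreated rats, beside 9.50% and 8.70% of all features. The 1 that rose lies near the share of all features. Ugt2b10, a glucuronosyltransferase of the steroid and bile acid class, read 0.53, 0.77, 1.07, 0.32 and 0.09 in normal colon and -0.50, -1.56, -1.40, -2.12 and -2.30 in tumours of untreated rats. The groups did not overlap, with rat 2 again the highest tumour, and the fall was 4.39-fold (log2 difference -2.13 ± 0.30 SE, adjusted p = 0.000109). Ugt1a6, which conjugates simple phenols, fell 3.11-fold (log2 difference -1.64 ± 0.32 SE, adjusted p = 0.00171), and Ugt1a2 fell 2.09-fold (log2 difference -1.07 ± 0.20 SE, adjusted p = 0.00100). Ugt1a forms share most of their sequence, and cross-reaction among their probes was not tested. Ugt2b1, counted among the 4, was above background on 5 of 7 arrays of normal colon of untreated rats, on 2 other arrays and in no tumour. It was kept through the group where it is high, and it was at least 1.22-fold lower in tumours of untreated rats, when the mean of the bright group is set against the lowest signal still well above background. Ugt2b7 rose (log2 difference 0.69 ± 0.20 SE, adjusted p = 0.0223), was above background on 9 arrays, and lost its call without rats 8 or 10 (0.40 to 0.64).

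Among glutathione S-transferases 9 of 16 fell in tumours of untreated rats, where 9.50% of all features fell. Gsta2, an alpha-class form that conjugates products of lipid peroxidation, read 0.14, 0.65, 0.15, 0.71 and 0.73 in normal colon and -0.76, -1.42, -2.15, -1.90 and -1.46 in tumours of untreated rats. In DSS rats it read 0.24, 0.24, -0.10, 0.60 and 0.31 in normal colon and -1.5, -1.25, -2.85, -0.63 and -0.88 in tumours. Neither pair of groups overlapped, and the fall was 4.05-fold in untreated rats (log2 difference -2.02 ± 0.32 SE, adjusted p = 0.000347) and 3.20-fold in DSS rats (log2 difference -1.68 ± 0.32 SE, adjusted p = 0.00312). The mu-class genes Gstm1 and Gstm2 fell 2.73-fold (log2 difference -1.45 ± 0.27 SE, adjusted p = 0.00115) and 2.30-fold (log2 difference -1.20 ± 0.20 SE, adjusted p = 0.000396). Gstm4 fell (log2 difference -0.61 ± 0.14 SE, adjusted p = 0.00609) and so did Gstm7 (log2 difference -0.88 ± 0.17 SE, adjusted p = 0.00170). Gstm3 fell (log2 difference -0.85 ± 0.25 SE, adjusted p = 0.0234), a call lost without rats 3, 4, 8 or 10 (-0.89 to -0.69) and without the bright arrays (-0.73, adjusted p = 0.0889). Gsta3 fell (log2 difference -0.99 ± 0.29 SE, adjusted p = 0.0247), a call lost without rats 3, 4, 8 or 10 (-1.04 to -0.70) and with the rat as a block (adjusted p = 0.0526). The mitochondrial and peroxisomal Gstk1 fell (log2 difference -0.80 ± 0.17 SE, adjusted p = 0.00336), and so did Gsto1, an omega-class reductase (log2 difference -0.56 ± 0.11 SE, adjusted p = 0.00156).

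Gstp1, the pi-class enzyme used as a marker of early liver lesions in rats, passed in no comparison. Its tumour difference in untreated rats was -0.04 ± 0.39 on the log2 scale. A second, dimmer probe read 0.03 for this difference, and its saturation was not examined. The Cy5 channel of the brighter probe was saturated on all 8 arrays of rats 7 to 10 and on none of rats 1 to 6. On that probe rats 1 to 6 read between -1.08 and -0.56 and rats 7 to 10 between 0.10 and 0.54. This gap between runs of slides is wider than any difference between groups. Gstt1, a theta-class form, differed by -0.13 ± 0.13.

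Sulfotransferases had 3 of 10 genes lower and 2 higher in tumours of untreated rats, beside 9.50% and 8.70% of all features. Sult1c2a read 0.20, 0.39, 0.02, 0.63 and 0.05 in normal colon and -0.98, -1.85, -2.67, -2.0 and -1.63 in tumours of untreated rats. The groups did not overlap, and the fall was 4.24-fold (log2 difference -2.08 ± 0.30 SE, adjusted p = 0.000124). Its relative Sult1c2 fell 3.20-fold (log2 difference -1.68 ± 0.27 SE, adjusted p = 0.000372) on the brighter probe, and a second probe moved less. Sult1a1, the phenol sulfotransferase, fell 3.65-fold (log2 difference -1.87 ± 0.31 SE, adjusted p = 0.000463). Sult1b1, which sulfates thyroid hormone and phenols, rose (log2 difference 0.73 ± 0.20 SE, adjusted p = 0.0144), a call lost without rats 4 or 8 (0.68 to 0.71). Sult2b1, the cholesterol sulfotransferase, rose (log2 difference 0.72 ± 0.22 SE, adjusted p = 0.0321), a call lost without rats 2, 3 or 8 (0.60 to 0.75).

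Markers of other cells moved with the same tumours. In untreated rats 8 of 18 markers of absorptive colonocytes fell and 2 rose, and 4 of 5 goblet markers fell. Of 7 fibroblast markers 4 rose and of 7 macrophage and neutrophil markers 5 rose. Summed as a mean over the list, absorptive markers read -1.38 to -0.50 in normal colon and -2.73 to -1.27 in tumours, and goblet markers -0.27 to 0.33 and -3.07 to -1.14. Fibroblast markers read -2.97 to -1.66 and -1.75 to -0.12, and macrophage and neutrophil markers -0.01 to 0.37 and 1.08 to 1.95. The part of these cells in the changes of the enzymes was not tested.

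In tumours of DSS rats, Fmo2, Cyp2d5, Cyp3a62, Cyp2j4 and Gsta2 were lower than in normal colon, as in untreated rats, whereas Gstm7, lower in untreated rats, was higher. Between tumour and normal colon of DSS rats 22 of 102 genes were lower and 5 higher, or 26.5%, beside 7.66% of all features (3.88% lower and 3.78% higher). Sult1c3 and Sult1d1 are among the 22, and 20 were lower without them. The 5 higher genes lie near the share of all features. The median difference was -0.08, and 0.02 over all features. The comparison shares no sample with that in untreated rats. Of the genes lower in tumours, 17 were lower in both treatments, which is 44.7% of the 38 in untreated rats and 77.3% of the 22 in DSS rats. Among them are Akr1c15, Cyp17a1, Cyp2d5, Cyp2j3, Cyp2j4, Cyp3a62, Cyp4f5, Fmo2, Gsta2, Gstk1, Gstm1, Gstm2, Gsto1, Sult1c2, Sult1c2a and Ugt2b10. Fmo5 and Cyp20a1 were higher in both. The matching shares over all features were not computed, so the overlap is not read as particular to these enzymes. With rats 1 and 5 of normal colon as 1 sample, 18 were lower and 3 higher. Without rat 5 it was 14 lower, the number of higher genes was 1 without rats 1, 5 or 9 and 3 without rat 7, and median centring left 4 lower and 2 higher. Cell markers moved in these tumours too: 7 of 18 absorptive markers fell and 1 rose, and 4 of 5 goblet markers fell. Of 7 macrophage and neutrophil markers 1 rose. For squamous genes, 9 of 9 were lower than in normal colon of DSS rats, where they were raised. Their list mean was -0.42 to -0.13 in tumours of DSS rats and -0.28 to 0.15 in those of untreated rats. Fibroblast and smooth muscle markers had 0 of 7 and 0 of 5 past the threshold. Absorptive markers averaged -1.45 to -1.0 in normal colon and -2.54 to -1.90 in tumours of DSS rats, and goblet markers -1.26 to -0.42 and -3.10 to -2.16. The part of these cells in the changes of the enzymes was not tested.

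The size of the fall in DSS rats can be read beside that in untreated rats. Cyp2d5 read -1.35, -1.51, -2.11, -1.82 and -1.95 in normal colon and -2.98, -3.34, -4.15, -3.69 and -3.55 in tumours of DSS rats, without overlap, a fall of 3.47-fold (log2 difference -1.80 ± 0.34 SE, adjusted p = 0.00291). Cyp3a62 fell 2.47-fold (log2 difference -1.30 ± 0.24 SE, adjusted p = 0.00248) and Cyp2j4 2.77-fold (log2 difference -1.47 ± 0.31 SE, adjusted p = 0.00525). Ugt2b10 fell 2.60-fold (log2 difference -1.38 ± 0.30 SE, adjusted p = 0.00716) and Sult1c2a 2.65-fold (log2 difference -1.41 ± 0.30 SE, adjusted p = 0.00591). Gstm2 fell 2.53-fold (log2 difference -1.34 ± 0.20 SE, adjusted p = 0.000298). Cyp2j3 fell (log2 difference -0.98 ± 0.22 SE, adjusted p = 0.00945) and so did Cyp4f5 (log2 difference -1.0 ± 0.22 SE, adjusted p = 0.00680). None of these genes passed the test of the difference between treatments, which does not show that the falls were equal.

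Several of the smaller calls in DSS rats were less firm. Akr1c15 fell (log2 difference -1.21 ± 0.34 SE, adjusted p = 0.0345), a call lost without rats 1, 3, 5 or 6 (-1.29 to -0.89) and with rats 1 and 5 as 1 sample (-1.14, adjusted p = 0.0871). Cyp17a1 fell (log2 difference -0.90 ± 0.21 SE, adjusted p = 0.0126), lost without rats 5 or 7 (-0.84 to -0.80), and so did Sult1c2 (log2 difference -1.10 ± 0.27 SE, adjusted p = 0.0164), lost without rats 1, 5, 6 or 7 (-1.15 to -0.92). Cyp20a1 rose (log2 difference 0.45 ± 0.13 SE, adjusted p = 0.0384), lost without rats 1, 5, 7, 8 or 9 (0.41 to 0.47). Gstk1 fell (log2 difference -0.59 ± 0.17 SE, adjusted p = 0.0418), lost without rats 1, 3, 4, 5, 6 or 7 (-0.62 to -0.54), and so did Gsto1 (log2 difference -0.37 ± 0.11 SE, adjusted p = 0.0487), lost without rats 1, 3, 5, 6, 7, 8 or 10 (-0.38 to -0.32) and with the rat as a block (adjusted p = 0.0605). With rats 1 and 5 as 1 sample the calls of Cyp20a1, Gstk1, Gsto1 and Ces2c were lost (adjusted p = 0.0875 to 0.111), and without the bright arrays those of Gstk1 and Gsto1 (adjusted p = 0.118 and 0.0599). Under median centring Gstk1 and Gsto1 turned to 0.11 and 0.36. Ces2c, of the second carboxylesterase class, fell (log2 difference -1.23 ± 0.34 SE, adjusted p = 0.0315), lost without rats 1, 5, 6 or 9 (-1.24 to -1.0). Ces1c, a plasma esterase, rose (log2 difference 1.22 ± 0.30 SE, adjusted p = 0.0178), lost without rats 1, 5, 7 or 9 (0.93 to 1.27) and without the bright arrays (1.0, adjusted p = 0.0640). Gstm5 rose (log2 difference 0.93 ± 0.23 SE, adjusted p = 0.0149), lost without rats 1, 5 or 9 (0.77 to 0.96); second probes of Ces1c and Gstm5 moved less.

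In normal colon, sampled at 97 days of age and so well after the second course of DSS, the esterases Ces1e and Ces1d and the reductase Akr1c15 were lower in DSS rats, and Akr1b8 was higher. Against untreated rats 17 of the 102 genes were lower and 8 higher, or 24.5%, beside 7.37% of all features (3.39% lower and 3.98% higher). Sult1c3 and Sult1d1 are among the 8, and 6 were higher without them. The median difference was -0.11, and -0.01 over all features. This comparison shares normal colon of untreated rats with the first tumour comparison and normal colon of DSS rats with the second, so values are set side by side and no overlap is drawn from them. Akr1c15 read -1.44, -1.44, -1.80, -2.02 and -1.80 in normal colon of DSS rats, below every untreated sample given above, a fall of 4.37-fold (log2 difference -2.13 ± 0.34 SE, adjusted p = 0.000705). Ces1e read -2.83, -3.0, -2.25, -2.88 and -2.89, also below every untreated sample, a fall of 5.73-fold on its brighter probe (log2 difference -2.52 ± 0.31 SE, adjusted p = 6.34e-05); the dimmer probe read -0.46. Ces1d read -0.97, -1.24, -0.72, -1.24 and -0.46 and fell 2.84-fold (log2 difference -1.51 ± 0.29 SE, adjusted p = 0.00362). Gstm7 read 0.18, 0.03, 0.27, 0.21 and -0.25 in untreated and -0.89, -0.99, -0.76, -1.10 and -1.80 in DSS rats, again without overlap, a fall of 2.30-fold (log2 difference -1.20 ± 0.17 SE, adjusted p = 0.000295).

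Other falls in normal colon of DSS rats were smaller. Gsta3 fell (log2 difference -1.24 ± 0.29 SE, adjusted p = 0.0150) and so did Cyp27a1 (log2 difference -0.80 ± 0.17 SE, adjusted p = 0.00597). Cyp2d4 fell (log2 difference -1.06 ± 0.25 SE, adjusted p = 0.0157), a call lost without rat 4 (-0.91), and so did Cyp2d2 (log2 difference -0.56 ± 0.15 SE, adjusted p = 0.0333), lost without rats 1, 4, 5, 8 or 10 (-0.54 to -0.50). Sult1a1 fell (log2 difference -1.19 ± 0.31 SE, adjusted p = 0.0261), lost without rats 3, 4, 5 or 9 (-1.21 to -1.16); its 5 DSS samples read between -1.51 and -1.26 and its 5 untreated samples between -0.39 and 0.02. Cyp2j4 fell (log2 difference -1.17 ± 0.31 SE, adjusted p = 0.0256), lost without rats 3, 4, 7 or 9 (-1.18 to -1.13), and so did Cyp2j3 (log2 difference -0.75 ± 0.22 SE, adjusted p = 0.0473), lost without rats 2, 3, 4, 5, 6, 7, 9 or 10 (-0.81 to -0.64). Cyp4f6 fell (log2 difference -0.39 ± 0.10 SE, adjusted p = 0.0235), lost without rats 4, 6 or 9 (-0.38 to -0.37), and so did Cyp2u1 (log2 difference -0.38 ± 0.10 SE, adjusted p = 0.0337), lost without rats 2, 3, 4, 5 or 8 (-0.39 to -0.36). Without the bright arrays all of these calls but those of Gsta3 and Cyp27a1 were lost (adjusted p = 0.050 to 0.0936), and those of Cyp2d2 and Cyp2j3 were lost with rats 1 and 5 as 1 sample (adjusted p = 0.0813 and 0.0554). Cyp2d2 and Cyp2u1 were named after their values were seen.

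The remaining named falls sat near the threshold. Cyp3a62 fell (log2 difference -0.86 ± 0.24 SE, adjusted p = 0.0403), a call lost without rats 1, 2, 3, 4, 5, 6, 7, 9 or 10 (-0.93 to -0.74). Ugt2b10 fell (log2 difference -1.02 ± 0.30 SE, adjusted p = 0.0451), lost without rats 1, 3, 4, 5, 6, 7, 8 or 9 (-1.11 to -0.90). Cyp17a1 fell (log2 difference -0.74 ± 0.21 SE, adjusted p = 0.0419), lost without rats 1, 3, 4, 5, 6, 7, 8, 9 or 10 (-0.78 to -0.65), and so did Ces1c (log2 difference -1.06 ± 0.30 SE, adjusted p = 0.0413), lost without rats 1, 2, 3, 5, 7, 8 or 9 (-1.14 to -0.93). Without the bright arrays adjusted p for these 4 genes ran from 0.0547 to 0.137, and with rats 1 and 5 as 1 sample it was 0.0531 for Ugt2b10, 0.0602 for Cyp17a1 and 0.0690 for Ces1c. With the rat as a random block the last pair also missed (adjusted p = 0.0526 and 0.0515). The number of lower genes was 9 without rats 3, 5 or 9, 7 without rat 4 and 11 without rat 7, and it was 12 with rats 1 and 5 as 1 sample and 6 without the bright arrays. The number of higher genes was 7 with rats 1 and 5 as 1 sample, and median centring left 4 lower and 1 higher.

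The rises in normal colon of DSS rats include Akr1b8, which read 0.71, 0.78, 1.83, 0.75 and 0.55 there. All 5 samples lay above the untreated ones, and the rise was 3.23-fold (log2 difference 1.69 ± 0.23 SE, adjusted p = 0.000147), with rat 6 the highest. Cyp1b1, a P450 outside the liver that oxidises oestrogens and polycyclic hydrocarbons, read -0.07, -0.05, -0.02, -0.05 and -0.00 in untreated and 1.11, 1.33, 0.39, 0.99 and 1.44 in DSS rats. Its probe, tied to the gene by symbol, rose (log2 difference 1.09 ± 0.25 SE, adjusted p = 0.0108), and it rose also in tumours of untreated rats (log2 difference 1.07 ± 0.25 SE, adjusted p = 0.00532). The dimmer probe matched by its RefSeq accession, above background on 10 arrays, read 0.06 and 0.19 for these differences, so the rise holds for 1 probe only. In untreated normal colon Cyp1b1 was above background on 2 of 7 arrays, both bright ones.

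The other 6 genes counted as higher with DSS in normal colon are given beside the squamous list that follows them. Sult1c3, a sulfotransferase of the 1C class, read -0.07, 0.05, -0.05, -0.03 and -0.02 in untreated rats and 2.35, 2.58, 1.22, 0.70 and 3.90 in DSS rats. No DSS sample overlapped the untreated ones. It was above background on 6 of 6 arrays of that group and on 2 of 7 of untreated normal colon, and on no tumour array, so it was kept through the group where it is high. In tumours of DSS rats it was at least 4.82-fold lower than in normal colon, the mean of the bright group set against the lowest signal still well above background. Sult1d1, which sulfates catecholamines and eicosanoids, read 0.94, 1.11, 0.28, 0.12 and 1.84 in normal colon of DSS rats and between -0.23 and 0.00 in that of untreated rats. It was above background on 5 of 6 arrays of the first group and otherwise only on 3 bright arrays, so it too was kept through its high group. In tumours of DSS rats it read -0.39 to -0.02.

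Cyp2b21, a P450 known from rat oesophagus, read 1.19, 1.18, 0.44, 0.01 and 0.77 in normal colon of DSS rats and -0.03, 0.00, 0.03, -0.16 and -0.02 in that of untreated rats. The groups overlapped at rat 7, and the rise was 1.69-fold (log2 difference 0.75 ± 0.17 SE, adjusted p = 0.00909). Cyp2b15 rose (log2 difference 0.59 ± 0.16 SE, adjusted p = 0.0266), a call lost without rats 1, 2, 3, 4, 5 or 8 (0.46 to 0.60), and both were lower in tumours of DSS rats, at -0.85 ± 0.17 (adjusted p = 0.00335) for Cyp2b21 and -0.67 ± 0.16 (adjusted p = 0.0120) for Cyp2b15 on the log2 scale, the latter lost without rat 5 (-0.51). The rise of Cyp2b15 was lost also without the bright arrays (adjusted p = 0.0718) and with rats 1 and 5 as 1 sample (adjusted p = 0.0681). These Cyp2b genes and Cyp2b12 were named after their values were seen. Cyp26b1, a retinoic acid hydroxylase, read 1.54, 1.5, 0.69, -0.43 and 0.88 in normal colon of DSS rats and -0.22, -0.30, -0.06, -1.05 and -0.09 in that of untreated rats. Rat 7 lay within the untreated range. Its probe was above background on 6 of 6 arrays of DSS and on 1 of 7 of untreated normal colon, so the level in untreated rats is mostly background; the fitted difference was 1.18 ± 0.29 (adjusted p = 0.0171), a call lost without rats 1 or 5 (1.0 to 1.01). Gstm1 read 1.79, 1.78, 1.13, 0.07 and 1.38 in DSS and 0.01, 0.08, 0.04, 0.10 and -0.34 in untreated rats. Rat 7 again lay with the untreated rats, and the rise was 2.38-fold (log2 difference 1.25 ± 0.27 SE, adjusted p = 0.00828). In tumours of DSS rats Gstm1 read -1.05, -1.33, -1.39, -1.74 and -1.27, a fall of 6.0-fold against that normal colon (log2 difference -2.58 ± 0.27 SE, adjusted p = 1.03e-05).

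These 6 genes were chosen as higher in normal colon of DSS rats, so high values there test no link with squamous tissue. The squamous list ran beside them. All 9 of its measured genes were higher in normal colon of DSS rats, with a median difference of 4.00, and lower in their tumours, with -3.57. Averaged over the list, the value was 3.46, 3.63, 3.22, 3.14 and 4.83 in normal colon of DSS rats 1, 5, 6, 7 and 9. It was 1.63 in normal colon of untreated rat 8 and between -0.59 and 0.15 in the other samples of untreated rats, tumours included, and between -0.42 and -0.13 in tumours of DSS rats. Rat 7, with the lowest list mean of the DSS rats, had the lowest Sult1c3, Sult1d1, Cyp2b21, Cyp2b15, Cyp26b1 and Gstm1 among them. Rat 6, whose list mean was the next lowest and close to that of rat 7, had the next lowest value of each but Cyp2b15. Rat 9, with the highest list mean, had the highest Sult1c3 and Sult1d1 but lay below rats 1 and 5 for Cyp2b21, Cyp2b15 (0.14), Cyp26b1 and Gstm1. In untreated rat 8 these genes read between -1.05 and 0.10. The part of squamous tissue in these results was not tested.

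**Figure D3:**
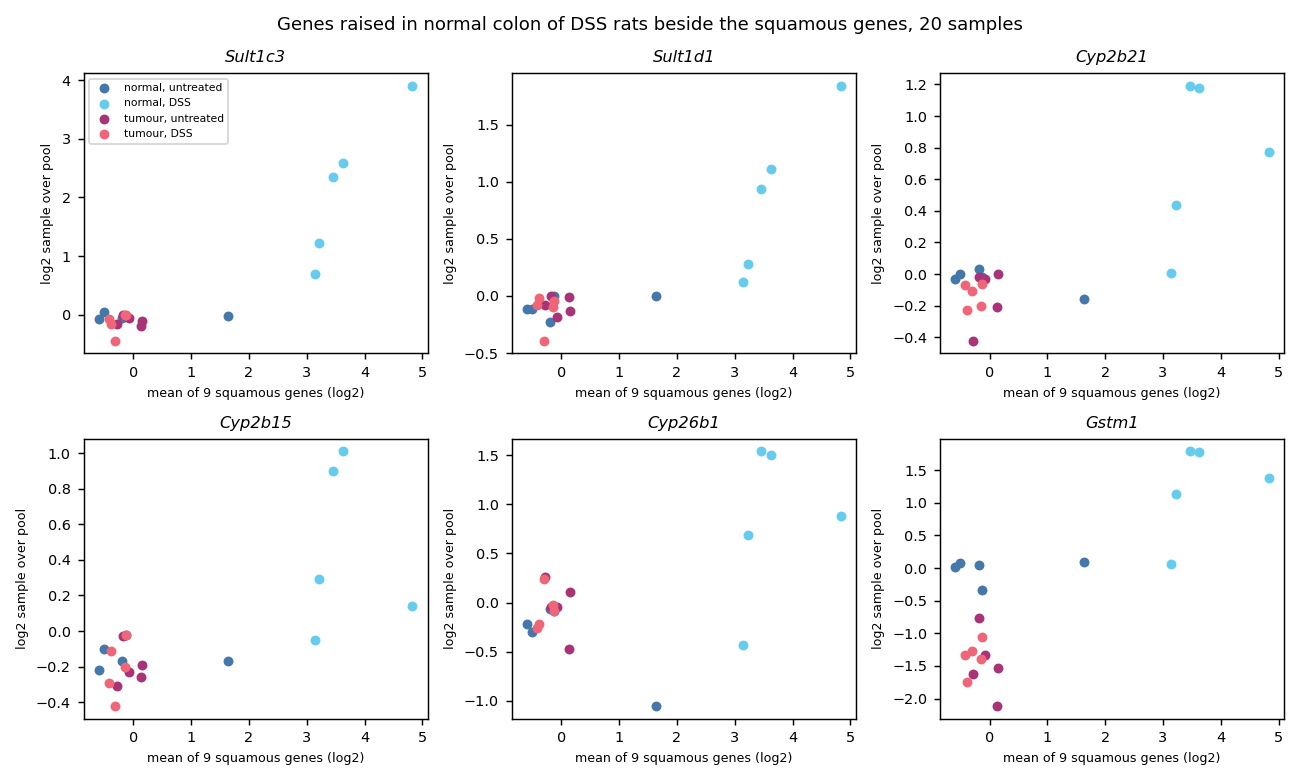
Log2 sample over pool of Sult1c3, Sult1d1, Cyp2b21, Cyp2b15, Cyp26b1 and Gstm1 in 20 samples (vertical) against the mean of 9 squamous genes in the same sample (horizontal, log2). The 5 samples of normal colon from DSS rats have list means from 3.14 to 4.83. In each panel the highest value is 1 of these samples. The genes shown were chosen as higher in that group than in normal colon of untreated rats, and Sult1c3 and Sult1d1 were kept through it. High values there thus follow from the choice and test no link with the list. The untreated sample at 1.63 is rat 8.

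In tumours no gene of the 102 passed between DSS and untreated rats. The count was 0 of 102 by limma, beside 0.00% of all features; 8 of the genes, or 7.84%, had an unadjusted p under 0.05, beside 6.35% of all features. The smallest adjusted p among the genes was 0.50, and differences ran from -0.82 for Cyp2j4 to 0.55 for Ugt1a6. For 90 of the 102 genes, or 88.2%, the 95% interval of the difference lay within 2-fold, as for 94.8% of all features. Differences within those intervals remain possible, so a count of 0 does not show that the tumours were alike. Akr1b8 read 1.40, 1.11, 2.10, 1.44 and 1.51 in tumours of DSS rats against 1.96 to 2.85 in those of untreated rats, with overlap at rat 6 and a difference of -0.71 that did not pass. The count stayed at 0 with each rat left out.

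The effect of DSS differed between tumour and normal colon for 7 genes: 3 moved down and 4 up in the interaction, which is the DSS effect in tumours minus that in normal colon. That is 6.86% of the 102 genes, beside 2.61% of all features (1.72% down and 0.885% up). Sult1c3, kept through normal colon of DSS rats, is among the 3 that moved down, and 2 moved down without it. Those 2 lie near the share of all features. The interaction also says how much the tumour difference differs between DSS and untreated rats. Akr1b8 was 7.98-fold higher in tumours of untreated rats and 1.51-fold higher in those of DSS rats, a difference of 0.59 that did not pass (adjusted p = 0.138; 0.00537 with the rat as a fixed block and 0.0363 as a random one). The interaction was -2.40 ± 0.32 (adjusted p = 0.000586), from -2.50 to -2.32 with any rat left out. Ces1e was -2.48 in untreated and 0.40 in DSS rats, with an interaction of 2.88 ± 0.44 (adjusted p = 0.00134) on the brighter probe. Gstm7 fell in tumours of untreated rats (-0.88) and rose in tumours of DSS rats (log2 difference 0.82 ± 0.17 SE, adjusted p = 0.00617), with an interaction of 1.70 ± 0.25 (adjusted p = 0.000897). Its tumours read -0.49, -0.69, -1.16, -1.06 and -0.59 in untreated and -0.32, -0.09, -0.43, -0.50 and -0.12 in DSS rats, and normal colon of DSS rats lay below the latter without overlap.

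The other 4 interactions were less firm. Cyp27a1 had 1.12 ± 0.24 (adjusted p = 0.0139), lost without rat 4 (1.04) and without the bright arrays (0.94, adjusted p = 0.0704). Cyp1b1 had -1.60 ± 0.35 (adjusted p = 0.0177) on 1 of its probes, lost without rats 1, 3, 4, 8 or 9 (-1.59 to -1.41) and without the bright arrays (-1.52, adjusted p = 0.0672). Ces1d had 1.61 ± 0.42 (adjusted p = 0.0454), lost without rats 1, 3, 4, 5, 7, 8, 9 or 10 (1.36 to 1.69). It was lost also without the bright arrays (adjusted p = 0.141) and with rats 1 and 5 as 1 sample (adjusted p = 0.0776). Sult1c3, the other gene, read -2.21 and is a description, since it was kept through normal colon of DSS rats. With rats 1 and 5 as 1 sample of normal colon 3 genes moved up and 2 down, and without the bright arrays 2 and 1. With the rat as a fixed block, which pairs tumour and normal colon of each animal, 7 genes moved up and 5 down, and with the rat as a random block 8 and 7. The number up was 7 without rat 2 and 2 without rat 4, and the number down was 1 without rats 1, 3, 4 or 8 and 7 without rat 7. Median centring left 1 each way.

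**Figure D4:**
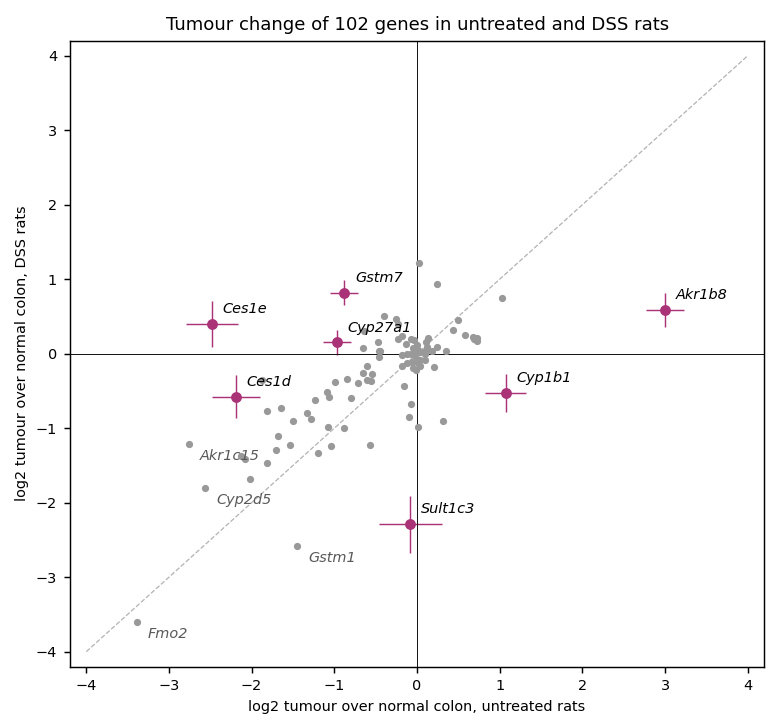
Log2 tumour over normal colon of the 102 genes in untreated rats (horizontal) and in DSS rats (vertical); the dashed line marks equal change. The 7 genes with an interaction at an adjusted p under 0.05 are drawn with standard errors. Sult1c3 is among them only as a description, since it was kept through normal colon of DSS rats, the group where it is high. Akr1b8 lies furthest right, at 3.0 and 0.59, and Fmo2 and Cyp2d5 lie in the lower left in both.

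The genes that work with these enzymes were read from lists of regulators, redox partners, further conjugating enzymes and transporters. Among 19 regulators 5 fell in tumours of untreated rats, where 9.50% of all features fell, and 2 fell with DSS in normal colon, where 3.39% did. In tumours of DSS rats 0 of the 19 passed, near the 3.88% lower and 3.78% higher of all features. Nr1i2, the pregnane X receptor, fell (log2 difference -0.91 ± 0.15 SE, adjusted p = 0.000376) in tumours of untreated rats and (log2 difference -0.68 ± 0.15 SE, adjusted p = 0.00823) with DSS in normal colon. Nr1i3, the constitutive androstane receptor, fell (log2 difference -0.46 ± 0.16 SE, adjusted p = 0.0470), a call lost without rats 1, 3, 4, 6, 7, 8 or 10 (-0.46 to -0.43) and without the bright arrays (adjusted p = 0.0588). Nfe2l2, the transcription factor of the oxidative stress response, fell (log2 difference -0.70 ± 0.13 SE, adjusted p = 0.000989), and its inhibitor Keap1 read -0.38 ± 0.16 without passing (adjusted p = 0.121; 0.0368 with the rat as a fixed block). Arnt, partner of the aryl hydrocarbon receptor, read 0.04 ± 0.09. Foxa2, a transcription factor of gut epithelium, fell with DSS in normal colon (log2 difference -1.5 ± 0.34 SE, adjusted p = 0.0120).

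Of 27 redox partners and other phase 1 enzymes, 10 fell and 4 rose in tumours of untreated rats, 4 and 1 in tumours of DSS rats, and 5 and 5 with DSS in normal colon. Over all features, 9.50% fell and 8.70% rose in the first comparison, 3.88% and 3.78% in the second and 3.39% and 3.98% in the third. Nqo1, the quinone reductase, rose (log2 difference 1.29 ± 0.28 SE, adjusted p = 0.00352) in tumours of untreated rats and (log2 difference 1.45 ± 0.28 SE, adjusted p = 0.00337) with DSS in normal colon. Its interaction was -2.08 ± 0.40 (adjusted p = 0.00697), the direction seen for Akr1b8. Txnrd1, thioredoxin reductase, rose (log2 difference 1.88 ± 0.25 SE, adjusted p = 7.47e-05) in tumours of untreated rats. Ephx1, the microsomal epoxide hydrolase, fell (log2 difference -1.22 ± 0.23 SE, adjusted p = 0.00112), and Por, which hands electrons to all microsomal P450s, read -0.48 ± 0.18 without passing (adjusted p = 0.0745; 0.0353 with the rat as a random block). Aldh1a1, which makes retinoic acid, fell (log2 difference -3.34 ± 0.44 SE, adjusted p = 6.29e-05) in tumours of untreated rats and (log2 difference -2.94 ± 0.44 SE, adjusted p = 0.000364) with DSS in normal colon. Aldh3a1, an aldehyde dehydrogenase of stratified epithelia, rose with DSS in normal colon (log2 difference 1.89 ± 0.25 SE, adjusted p = 0.000112) and was lower in tumours of DSS rats (log2 difference -1.97 ± 0.25 SE, adjusted p = 6.21e-05), beside the squamous list; the part of squamous tissue was not tested.

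Of 19 further conjugating enzymes, 5 fell in tumours of untreated rats and 6 in tumours of DSS rats, and 2 fell and 1 rose with DSS in normal colon, beside 9.50%, 3.88%, 3.39% and 3.98% of all features. Papss2, a synthase of the sulfate donor of Sult enzymes, fell in tumours of untreated (log2 difference -2.79 ± 0.37 SE, adjusted p = 7.23e-05) and DSS rats (log2 difference -1.87 ± 0.37 SE, adjusted p = 0.00391). Papss1, the other listed synthase, fell in tumours of untreated rats (-1.02, adjusted p = 0.00867) and with DSS in normal colon (-1.07, adjusted p = 0.0140). In tumours of DSS rats it did not pass (-0.48, adjusted p = 0.312). Papss1 was not named by the rule and was not refitted with rats left out. Nat1, an arylamine N-acetyltransferase, fell in tumours of untreated and of DSS rats, at -0.91 ± 0.18 (adjusted p = 0.00167) and -1.08 ± 0.18 (adjusted p = 0.000899) on the log2 scale. Ggt1, which starts the breakdown of glutathione conjugates, was the 1 that rose with DSS in normal colon (log2 difference 3.50 ± 0.49 SE, adjusted p = 0.000194), and it was lower in tumours of DSS rats (log2 difference -2.77 ± 0.49 SE, adjusted p = 0.00145).

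Of 24 transporters, 5 fell and 2 rose in tumours of untreated rats, 4 and 2 in tumours of DSS rats, and 3 and 2 with DSS in normal colon. All features had 9.50% lower and 8.70% higher, 3.88% and 3.78%, and 3.39% and 3.98% in the same order, so the 2 that rose in untreated rats lie near the share of all features. Slco2b1, an organic anion transporter, fell (log2 difference -2.70 ± 0.38 SE, adjusted p = 0.000117) in untreated rats. Slc15a1, the peptide and drug transporter, fell (log2 difference -1.91 ± 0.37 SE, adjusted p = 0.00163) in untreated rats and (log2 difference -1.52 ± 0.37 SE, adjusted p = 0.0162) in DSS rats, the latter lost without rats 5 or 9 (-1.49 to -1.43) and with rats 1 and 5 as 1 sample (adjusted p = 0.0506). Abcg2, an efflux pump, rose in tumours of DSS rats (log2 difference 1.40 ± 0.41 SE, adjusted p = 0.0447), lost without rats 1, 2, 3, 5, 6 or 9 (1.21 to 1.51) and with rats 1 and 5 as 1 sample (adjusted p = 0.0721). Abcb1a and Abcc2, efflux pumps for drugs and conjugates, read -0.72 ± 0.48 and -0.47 ± 0.50 in tumours of untreated rats and did not pass.

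RefSeq promoter windows (GRCr8, 250 bases before to 50 after each start) were found for 84 of the 102 genes. Promoters of 3 genes are printed because their genes moved and their windows hold a response element core: TNGCGTG, the dioxin response element core to which the aryl hydrocarbon receptor binds, and TGACNNNGC, the antioxidant response element core of Nfe2l2. Each run is the 250 bases before the start, on the gene's strand, with matches on either strand in capitals.
Cyp1b1, chr6:21094315-21094564, plus strand: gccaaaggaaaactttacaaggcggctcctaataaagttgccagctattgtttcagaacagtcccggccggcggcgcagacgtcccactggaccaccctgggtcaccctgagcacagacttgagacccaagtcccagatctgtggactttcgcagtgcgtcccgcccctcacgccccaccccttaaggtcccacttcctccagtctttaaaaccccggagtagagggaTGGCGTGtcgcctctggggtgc
Gsta2, chr8:88077093-88077342, minus strand: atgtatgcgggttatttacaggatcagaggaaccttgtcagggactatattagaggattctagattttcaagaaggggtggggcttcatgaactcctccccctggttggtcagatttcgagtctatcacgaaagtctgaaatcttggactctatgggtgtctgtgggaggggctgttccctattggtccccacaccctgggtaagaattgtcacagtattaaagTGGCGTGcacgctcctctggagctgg
Akr1c15, chr17:71117958-71118207, minus strand: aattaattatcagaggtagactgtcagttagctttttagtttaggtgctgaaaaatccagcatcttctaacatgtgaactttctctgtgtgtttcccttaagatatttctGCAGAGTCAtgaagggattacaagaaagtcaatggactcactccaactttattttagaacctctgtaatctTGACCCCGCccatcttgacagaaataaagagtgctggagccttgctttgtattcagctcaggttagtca
The dioxin core begins 22 bases before the start of Cyp1b1 and 26 before that of Gsta2, and the antioxidant core begins 140 and 69 bases before the start of Akr1c15. Over whole windows the dioxin core was found in 3 of 84 genes (3.57%; Cyp1b1, Cyp26b1 and Gsta2) and in 4.89% of all 33469 windows. The antioxidant core was found in 9 of 84 genes (10.7%) and in 12.1% of all windows, and TTTATG, which Cdx2 binds, in 12 (14.3%) and in 12.7%. The direct repeat of AGGTCA with 1 base between and the Hnf1 motif, GTTAAT and ATTAA with 1 base between, were in none of the 84 and in 0.0538% and 0.0448% of all windows. A match is a description of these letters and no evidence of binding, and Cyp1b1 and Gsta2 moved in opposite directions in tumours of untreated rats.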

How the data were processed

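RNA of 20 samples, normal distal colon and a colonic tumour of 10 rats, was measured on 24 two-colour arrays. Per the file headers the authors deposited scanner output of Agilent Feature Extraction 9.1.3.1 with spot intensity in both channels, Agilent's log10 ratio and quality flags, and per the labels Cy3 held the sample and Cy5 the pool. Partek is listed, with no role, in the submitters' processing notes. From the deposited intensity values, mean signals were background-corrected by normexp with an offset of 50, which pulls ratios of dim probes toward 0, and normalized by loess within arrays to log2 Cy3 over Cy5. The deposited log10 ratio was not tested; the authors' processed signals were an alternative.

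Where a rat's tissue was run on a second array, both were averaged first, so a group holds 5 rats. Means of the 4 groups were fitted with limma 3.58.1 in R 4.3.3 (lmFit and eBayes, two-sided), with Benjamini-Hochberg adjustment over 26097 features and a threshold of 0.05. Steps were tested on simulated data. Probes were named by accession (10835), current symbol (5196), older name (3478) or the file's own name (21503). The 102 genes and all lists were chosen with earlier results of these data known. Genes were named by a rule: the 5 largest rises and falls per comparison, the 3 smallest p per family, and a list of textbook enzymes and partners; 6 further genes were named after their values were seen. Same-numbered samples come from the same rat, and their deviations from group means correlated at 0.0801 to 0.567. The labels name separate rats, and p-values rest on the spread between them. The number of arrays limits the precision.

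Alternatives were median centring, another offset, Agilent's processed signals, filters on dim probes, other probe rules, the rat, slide or run of slides as a term, each run alone, array weights, and leaving out each rat or the 3 bright arrays; counting rats 1 and 5 as 1 sample was added after seeing the data. Genes without a kept probe were left out. Results of 2 further named genes are not reported here.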

Additional observations from a re-analysis of the deposited data

Results flagged for a closer look

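Each named gene was checked in each of the 4 groups for a sample far from the other 4, by the gap to the nearest sample over the range of the group (Dixon's limit of 0.71 for 5 samples). Of 388 such groups 32 held one, and chance alone gives about 1 in 20. In normal colon of untreated rats, rat 8 stood apart for Cyp11b1 (-0.16, next -0.02, lowest), Cyp26b1 (-1.05, next -0.30, lowest), Cyp2b21 (-0.16, next -0.03, lowest), Cyp4f4 (0.23, next 0.01, highest), Gsto1 (-0.01, next -0.19, highest), Ugt1a6 (-0.25, next 0.47, lowest) and Ugt2b7 (-0.15, next 0.00, lowest). Rat 10 stood apart there for Akr1c2 (-0.00, next -0.19, highest), Gstk1 (-1.07, next -0.67, lowest) and Gstm1 (-0.34, next 0.01, lowest). In normal colon of DSS rats, rat 6 stood apart for Akr1b8 (1.83, next 0.78, highest), Ces1e (-2.25, next -2.83, highest) and Gsta3 (-1.91, next -2.45, highest). Rat 9 stood apart there for Gstk1 (-1.32, next -0.82, lowest), Gstm3 (-1.10, next -0.25, lowest) and Gstm5 (-1.55, next -0.91, lowest). Rat 7 stood apart there for Cyp2u1 (-0.81, next -0.27, lowest). In tumours of untreated rats, rat 4 stood apart for Akr1b8 (2.85, next 2.14, highest), Foxa2 (-1.07, next 0.15, lowest) and Sult2b1 (0.64, next -0.24, highest). Rat 2 stood apart there for Ces1d (-0.60, next -1.67, highest), Fmo4 (-0.10, next -0.70, highest) and Nat1 (-0.63, next -1.13, highest). Rat 8 stood apart there for Nqo1 (1.56, next 0.91, highest). Rat 10 stood apart there for Ugt1a1 (-1.71, next -1.04, lowest). In tumours of DSS rats, rat 5 stood apart for Ggt1 (-1.31, next -0.45, lowest) and Ugt2b35 (-0.18, next 0.07, lowest). Rat 6 stood apart there for Nr1i2 (-1.56, next -0.92, lowest) and Sult1c2a (-3.24, next -1.80, lowest). Rat 1 stood apart there for Abcb1a (-0.99, next -2.08, highest). Rat 7 stood apart there for Por (-0.16, next -0.47, highest). Rat 9 stood apart there for Sult1d1 (-0.39, next -0.10, lowest).

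The effect of DSS differed between tumours and normal colon, by the interaction term of the limma fit, for 7 of the xenobiotic enzymes and for 5 named partners. On the log2 scale, DSS effect in tumours minus that in normal colon, those below 0 were Akr1b8 (-2.40, adjusted p = 0.000586), Aldh3a1 (-1.79, adjusted p = 0.00876), Cyp1b1 (-1.60, adjusted p = 0.0177), Ggt1 (-4.02, adjusted p = 0.00319), Nqo1 (-2.08, adjusted p = 0.00697), Sult1c3 (-2.21, a description, since it was kept through normal colon of DSS rats), Txnrd1 (-1.42, adjusted p = 0.0397). Those above 0 were Aldh1a1 (2.41, adjusted p = 0.0449), Ces1d (1.61, adjusted p = 0.0454), Ces1e (2.88, adjusted p = 0.00134), Cyp27a1 (1.12, adjusted p = 0.0139), Gstm7 (1.70, adjusted p = 0.000897). The calls of Txnrd1 and Aldh1a1 were lost without the bright arrays (-1.49, adjusted p = 0.0888, and 2.11, adjusted p = 0.154) and in 8 of the 10 fits that leave out 1 rat. No explanation of these values was tested.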

How the results depend on the processing

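The main counts of the 102 genes were 9 higher and 38 lower in tumours of untreated rats, 5 and 22 in tumours of DSS rats, 8 and 17 with DSS in normal colon, and 4 and 3 in the interaction; counts not given here stayed within 1.5 times of these. Median centring gave 2 and 18, 2 and 4, 1 and 4, and 1 and 1, and moved the median of all features to 0.25 in tumours of DSS rats and to 0.38 in the interaction. Under it the tumour difference in DSS rats turned to 0.11 for Gstk1 and to 0.36 for Gsto1, and 42 of 136 named calls held; the cause was not tested. The first run of slides alone, with 3 rats a group, gave 4 higher in tumours of untreated rats, 3 higher in tumours of DSS rats, 11 lower with DSS in normal colon and 2 higher in the interaction. The second run, with 2 rats a group, gave 0 and 2 in tumours of DSS rats and 0 in each direction with DSS in normal colon and in the interaction; all 136 named differences kept their direction in both runs. Without the 3 bright arrays, 3 were higher in tumours of DSS rats, 6 lower with DSS in normal colon, and 2 and 1 in the interaction. With rats 1 and 5 of normal colon as 1 sample, 3 were higher in tumours of DSS rats. Among genes above background on at least 12 arrays, 5 were higher with DSS in normal colon. The slide as a random block gave 29 lower with DSS in normal colon and 7 lower in the interaction, array weights 26 and 8, and Agilent's processed signals or the run of slides as a term 5 lower in the interaction. The replicate block, which pairs tumour and normal colon of each rat, gave 7 and 5 in the interaction as a fixed term and 8 and 7 as a random term; it ended the calls of Gsta3, Gsto1, Ces1c and Cyp17a1 given above and no other named call. It also brought named differences past the threshold that had missed it, 6 (fixed) and 7 (random) in tumours of untreated rats, 10 and 9 in tumours of DSS rats, and 7 and 11 in the interaction. With 1 rat left out the ranges were 5 to 9 and 32 to 38 in tumours of untreated rats, 1 to 5 and 14 to 23 in tumours of DSS rats, 6 to 9 and 7 to 14 with DSS in normal colon, and 2 to 7 and 1 to 7 in the interaction. For DSS against no treatment in tumours the count was 0 in both directions under every alternative run.

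Dim probes limit the set: members seen on few arrays sit near background, where the offset shrinks a ratio. Saturation of the pool channel limits the brighter probe of Gstp1.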
